A study of Homo sapiens with 6 samples.

Results

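The genes described here encode heat shock chaperones of the HSP70, HSP110, HSP60 and small heat shock protein families and the BAG proteins that regulate HSP70, together with HSPBAP1 and HSPB2-C11orf52. They were chosen by gene symbol from the 14884 genes that the platform's table names on the array, by a rule that uses no measured value. The rule was chosen with earlier results of these data known, so shares beside those of all genes are not independent evidence. The symbols searched also cover the proteasome subunits named PSM, the CCT chaperonin, HSP90, HSPE1 and the DNAJ co-chaperones. They cover HSPA8 and HSPA13 of the HSP70 family too. The table gives no probeset any of these names, so those genes were not analysed here. The proteasome was seen only through a few subunits and partners with other names. HSPA5, another HSP70 gene, was left out by the rule itself. This left 23 genes, of which 12 are HSP70 and HSP110 genes, 1 encodes HSP60 (HSPD1), 5 carry an HSPB symbol and 5 are BAG genes. HSPBAP1, which encodes a binding partner of HSPB1, and HSPB2-C11orf52, a noncoding readthrough transcript, match the symbol pattern but encode no small heat shock protein.

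RNA came from U87 cells, a human glioblastoma line grown in medium with serum, 96 h after lentiviral infection. In the first group a short hairpin RNA against ZNF768, a zinc finger transcription factor, had been delivered and transduced cells selected with an antibiotic, puromycin or blasticidin depending on the vector (ZNF768 knockdown, 3 arrays). The other group was labelled control (3 arrays), and the labels do not say which virus or selection it received. A table of the study marks the knockdown arrays as a single hairpin, so an effect of that hairpin other than on ZNF768 cannot be told apart from the loss of ZNF768. Values are log2 expression per probeset on Affymetrix Human Gene 2.0 ST arrays.

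HSP70 chaperones bind unfolded stretches of proteins and release them in cycles of ATP hydrolysis. DNAJ proteins bring clients to them, and HSP110 and BAG proteins exchange the nucleotide that ends a cycle, after which a client can fold, be handed to HSP90 or be sent to the proteasome. Small heat shock proteins hold unfolding proteins without ATP, and HSP60 folds proteins inside mitochondria. Some of these genes are always on, and others are switched on by heat shock factor 1 (HSF1) when unfolded proteins accumulate, through heat shock elements in their promoters. HSP70 is abundant in many tumor lines without any heat shock.

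The upstream sequences of HSPA1A and HSPA1B, the stress-inducible HSP70 pair, of HSPA6, another inducible HSP70 gene, and of HSPB1, an inducible small heat shock gene, are shown because these genes share heat shock element letters and differed in what the arrays measured. They are the 250 bases before each start site in RefSeq on GRCh38.p14, all on the plus strand, at chr6:31815293-31815542 for HSPA1A, chr6:31827488-31827737 for HSPA1B, chr1:161524290-161524539 for HSPA6 and chr7:76302423-76302672 for HSPB1. Capitals mark matches to GAANNTTC or TTCNNGAA, the core of a heat shock element with 2 units.
HSPA1A: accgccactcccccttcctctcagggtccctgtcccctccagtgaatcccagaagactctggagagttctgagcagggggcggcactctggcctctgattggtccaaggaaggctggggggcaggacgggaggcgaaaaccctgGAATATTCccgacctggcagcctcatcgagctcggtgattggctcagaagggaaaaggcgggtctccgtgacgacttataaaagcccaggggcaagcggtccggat
HSPA1B: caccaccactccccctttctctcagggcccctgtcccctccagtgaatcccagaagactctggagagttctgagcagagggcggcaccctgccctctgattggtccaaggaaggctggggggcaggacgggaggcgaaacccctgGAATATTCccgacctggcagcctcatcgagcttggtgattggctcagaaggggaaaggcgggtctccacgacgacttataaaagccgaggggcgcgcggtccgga
HSPA6: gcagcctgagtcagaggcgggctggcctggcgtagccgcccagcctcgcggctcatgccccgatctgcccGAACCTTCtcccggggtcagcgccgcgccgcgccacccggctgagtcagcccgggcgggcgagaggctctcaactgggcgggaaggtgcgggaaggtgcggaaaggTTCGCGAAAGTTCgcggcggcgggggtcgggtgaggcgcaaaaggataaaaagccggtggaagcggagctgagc
HSPB1: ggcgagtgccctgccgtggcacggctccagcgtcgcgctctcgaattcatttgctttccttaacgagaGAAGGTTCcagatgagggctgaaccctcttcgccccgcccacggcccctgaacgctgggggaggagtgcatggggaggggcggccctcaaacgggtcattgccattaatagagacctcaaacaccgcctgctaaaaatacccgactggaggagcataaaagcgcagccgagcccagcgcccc

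The targeted gene was checked first. ZNF768 read 7.02, 7.14 and 7.31 in ZNF768 knockdown cells, against 8.49, 8.54 and 8.54 in control cells on the log2 scale, which is 0.388 of the control level (adjusted p = 0.00015 from limma). Array medians were 6.398 to 6.444, and Pearson correlations across probesets, which are not independent replicates, were 0.993 to 0.994 among knockdown arrays, 0.992 to 0.994 among control arrays and 0.977 to 0.980 between the groups. At a limma adjusted p below 0.05 the test called 33.4% of the 14884 genes, 16.6% as risen and 16.8% as fallen. Of 4 measured mesenchymal markers, 3 fell (VIM, CD44 and FN1), with VIM at 11.1 in knockdown cells and 11.8 in control cells, and S100A4 read 5.20 in knockdown cells and 5.27 in control cells and did not pass the test. The 6 glial markers averaged 6.47 to 6.53 per array in knockdown cells and 6.52 to 6.64 in control cells, near the array median, with AQP4 and S100B at 5.44 and 5.90 in knockdown cells and 5.41 and 5.91 in control cells, and 1 of the 6 fell (NES, 7.73 in knockdown cells and 8.23 in control cells). Of 5 measured markers of myeloid cells 3 fell, CD68, EVI2B and CSF1R, with log2 differences of -3.11, -2.28 and -0.50. The 5 averaged 6.85 to 7.00 per array in knockdown cells and 8.01 to 8.10 in control cells. CD14 and LYZ, which define monocytes, read 6.09 and 5.69 in knockdown cells and 5.89 and 5.70 in control cells and did not pass the test. The part of these markers in the results that follow was not tested.

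The stress-inducible HSP70 genes HSPA1A and HSPA1B had the most negative differences of the 23 genes, and 5 more genes of the HSP70 and HSP110 group, HSPD1 and BAG2 were lower in ZNF768 depleted cells too. Of the 23 genes, 11 passed the test, beside 33.4% of all 14884 genes. The 11 were 9 that fell and 2 that rose, that is 39.1% and 8.7% of the 23 genes, beside 16.8% and 16.6% of all genes. Of the 12 HSP70 and HSP110 genes 7 fell (58.3%), with a median log2 difference of -0.35, and the other 5 did not pass the test. The median difference was -0.05 on the log2 scale over the 23 genes and 0.04 over all genes. In 9 of the 23 genes all 3 knockdown arrays lay below all 3 control arrays and in 4 they lay above, whereas of all genes 51.5% separated, 23.5% downward and 28% upward. Since the RNA came from whole cultures, fewer cells of a type and less RNA per cell cannot be told apart.

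**Figure D1:**
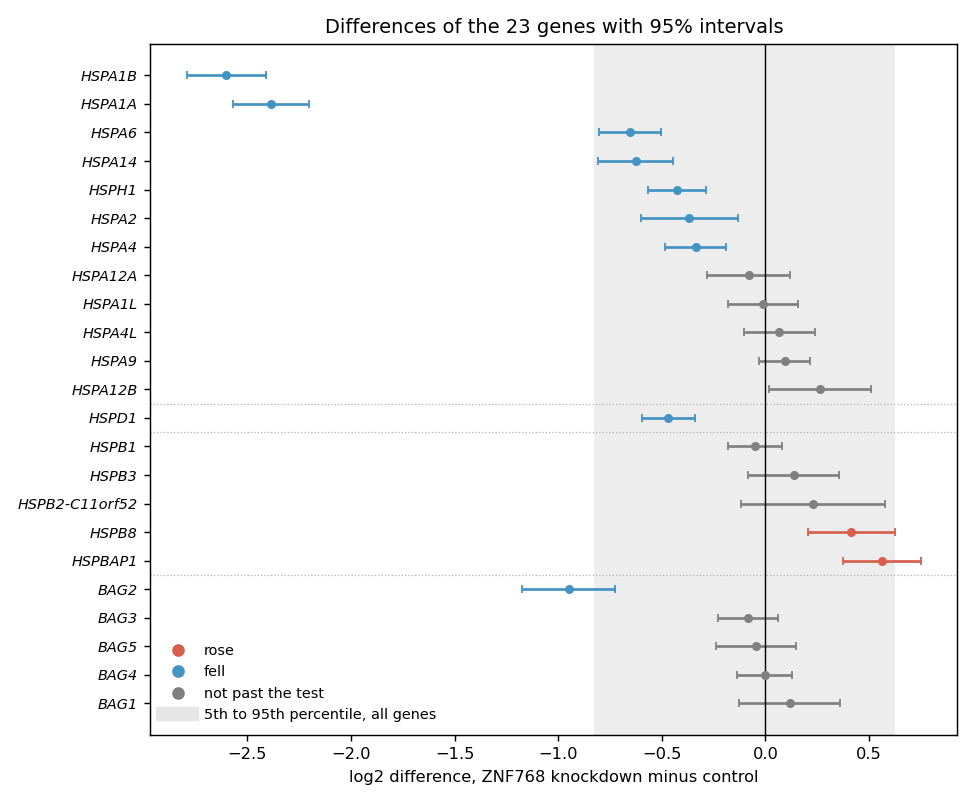
Difference in log2 expression, ZNF768 knockdown minus control, for each of the 23 genes (points) with the 95% interval from limma (bars), grouped as HSP70 and HSP110, HSP60, HSPB symbols and BAG. The grey band holds the 5th to 95th percentile of all named genes, from -0.82 to 0.62, and HSPA1A, HSPA1B and BAG2 have points to the left of it.

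HSPA1A and HSPA1B changed most. They encode almost the same protein, the major cytosolic HSP70 that cells make on stress. HSPA1A read 9.63, 9.55 and 9.44 in ZNF768 knockdown cells, against 11.89, 12.01 and 11.88 in control cells on the log2 scale. Its level was therefore 0.191 of that in control cells, a log2 difference of -2.39 (standard error 0.0755, adjusted p = 1.5e-05 from limma). HSPA1B read 9.35, 9.41 and 9.23 in knockdown cells, against 11.91, 12.04 and 11.86 in control cells, or 0.165 of the control level (log2 difference -2.60, standard error 0.0789, adjusted p = 1.35e-05 from limma). The gap between the groups was many times the spread within either of them. Among the 14884 genes, HSPA1B had the 66th and HSPA1A the 78th most negative difference.

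Because the genes are nearly identical, probes of one can bind RNA of the other, and the arrays cannot say how much of the change belonged to each. The locus lies in the major histocompatibility region, for which the array holds probesets of several haplotypes, and each of the 2 genes has 5 probesets. All 5 of HSPA1A fell, with log2 differences from -2.43 to -2.38, and 3 of them are 1 measurement, since they hold the same values. All 5 of HSPA1B fell as well, from -2.69 to -2.54. No knockdown value of HSPA1A was above 9.63 and no control value below 11.4, whichever probeset was read.

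HSPA1L lies head to head with HSPA1A and is a relative that heat does not induce, known from the testis. It read 8.03, 8.05 and 7.96 in ZNF768 knockdown cells, against 7.97, 7.97 and 8.14 in control cells. On this probeset the groups overlapped, and the log2 difference was -0.01 with a 95% interval from -0.18 to 0.16 (adjusted p = 0.925 from limma). Its 5 probesets, which hold only 3 distinct sets of values, gave differences from -0.16 to 0.00, and the lowest adjusted p among them was 0.166 from limma. That was in 1 probeset whose knockdown values (7.60, 7.60 and 7.44) all lay below its control values (7.66, 7.72 and 7.75). Subtracted within each array, HSPA1A minus HSPA1L differed between the groups by -2.38 on the log2 scale (standard error 0.0982, n = 3 per group). HSPA1A was taken for its large difference, so this is given without a test.

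**Figure D2:**
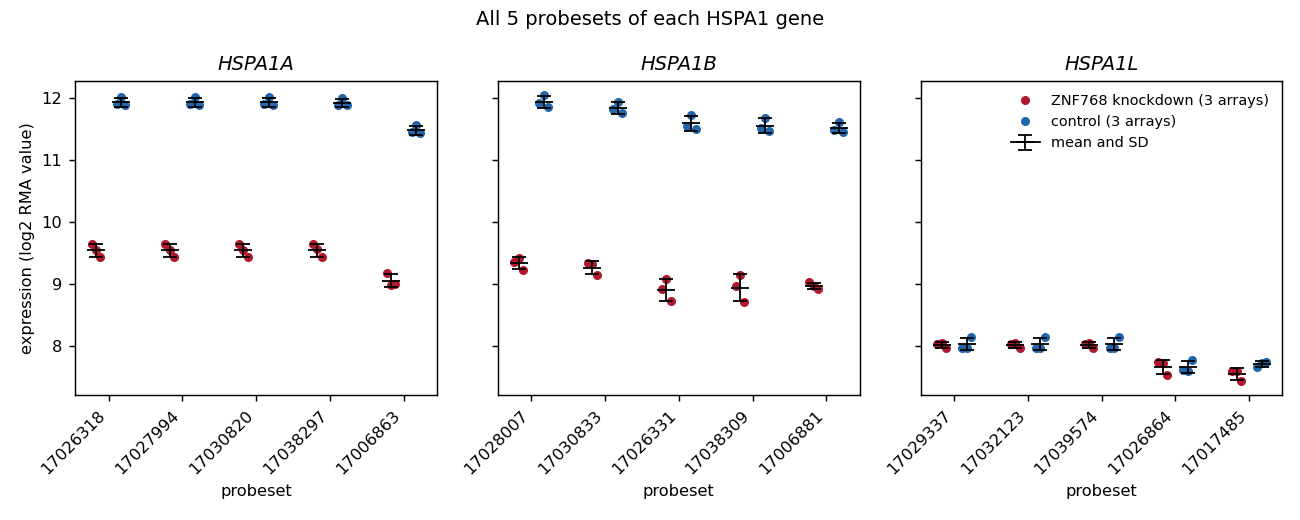
Log2 expression of every probeset of HSPA1A, HSPA1B and HSPA1L on each array, ZNF768 knockdown to the left of control at each probeset, with mean and SD (bars, n = 3). In all 10 probesets of HSPA1A and HSPA1B the knockdown arrays lie more than 1 log2 unit below the control arrays, and those of HSPA1L lie close together.

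The start sites of HSPA1A and HSPA1L are 259 bases apart in RefSeq, and their upstream windows share 241 of the 250 bases. The GAATATTC printed in capitals for HSPA1A is the only match in either window and is the same site, 98 bases from the HSPA1A start and 153 bases from the HSPA1L start. The windows of HSPA1A and HSPA1B, aligned without gaps at a shift of 1 base, are identical at 235 of 249 positions (94.4%), and both hold this site. The nearest protein-coding genes were looked at after the HSPA1A values had been seen. Of the 5 on each side, 8 were measured. NEU1, a lysosomal sialidase next to HSPA1B, rose by 0.64 on the log2 scale (limma adjusted p = 0.000443), and C2, a complement gene, rose by 0.47. MSH5, a meiotic recombination gene, fell by 0.54 and SAPCD1 fell by 0.39 on the log2 scale, and the remaining 4 did not pass the test. Among these, VARS1 and EHMT2 (log2 differences -0.25 and -0.20) had all knockdown arrays below all control arrays, and VWA7 and ZBTB12 overlapped. Of the 8, then, 2 rose and 2 fell, beside 16.6% and 16.8% of all genes. With so few genes these counts are not a result about the locus.

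HSPA6, an HSP70 gene that is silent in most cells until strong stress, fell as well. It read 6.66, 6.77 and 6.65 in ZNF768 knockdown cells and 7.36, 7.38 and 7.31 in control cells, 0.636 of the control level (log2 difference -0.65, standard error 0.0613, adjusted p = 0.000652 from limma). The groups did not overlap, though the knockdown values are not far above the array median and the background of the probeset is unknown. HSPA7, its pseudogene with nearly the same sequence, was left out by the rule and read 5.63 ± 0.11 in knockdown cells and 5.43 ± 0.33 in control cells (SD, n = 3 each).

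Among the 23 genes, the exchange factors of the HSP110 type that fell were HSPH1 and HSPA4. HSPH1, itself induced by heat, read 11.28, 11.17 and 11.28 in ZNF768 knockdown cells, against 11.67, 11.69 and 11.65 in control cells. Its log2 difference was -0.43 (standard error 0.0576, adjusted p = 0.00284 from limma), or 0.744 of the control level. HSPA4, made constitutively, read 11.42, 11.30 and 11.37 in knockdown cells and 11.70, 11.65 and 11.75 in control cells (log2 difference -0.34, standard error 0.061, adjusted p = 0.00959 from limma). In both, the knockdown arrays were below every control array. HSPA4L, the remaining HSP110 gene among the 23, read 10.72 ± 0.08 in knockdown cells and 10.65 ± 0.07 in control cells (SD, n = 3 each), with a 95% interval of the difference from -0.11 to 0.24.

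Other HSP70 genes differed among themselves. HSPA14, which works with a DNAJ protein at the ribosome, read 8.98, 9.02 and 8.79 in ZNF768 knockdown cells, against 9.52, 9.56 and 9.58 in control cells, so that it fell to 0.648 of the control level (log2 difference -0.63, standard error 0.0758, adjusted p = 0.00182 from limma). HSPA2, which in the mouse is needed in male germ cells, read 8.32, 8.03 and 8.24 in knockdown cells and 8.51, 8.50 and 8.68 in control cells. Its fall was small (log2 difference -0.37, standard error 0.0962, adjusted p = 0.0391 from limma) and lost its call when any sample other than knockdown replicate 1 was left out, with adjusted p from 0.0135 to 0.111 over the alternatives. HSPA9, the mitochondrial HSP70, read 12.45, 12.41 and 12.45 in knockdown cells and 12.33, 12.35 and 12.35 in control cells. These groups did not overlap, yet the log2 difference of 0.09 (95% interval from -0.03 to 0.22) was too small to pass the test (adjusted p = 0.267 from limma). The atypical relatives HSPA12A and HSPA12B had log2 differences of -0.08 and 0.26 and did not pass it either (adjusted p = 0.544 and 0.126 from limma).

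HSPD1, the mitochondrial HSP60 chaperonin, read 11.30, 11.23 and 11.29 in ZNF768 knockdown cells, against 11.74, 11.75 and 11.74 in control cells. It fell to 0.722 of the control level (log2 difference -0.47, standard error 0.053, adjusted p = 0.00137 from limma). Both mitochondrial chaperones among the 23 genes were thus bright, and only HSPD1 passed the test. The difference between HSPD1 and HSPA9 was not tested.

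**Figure D3:**
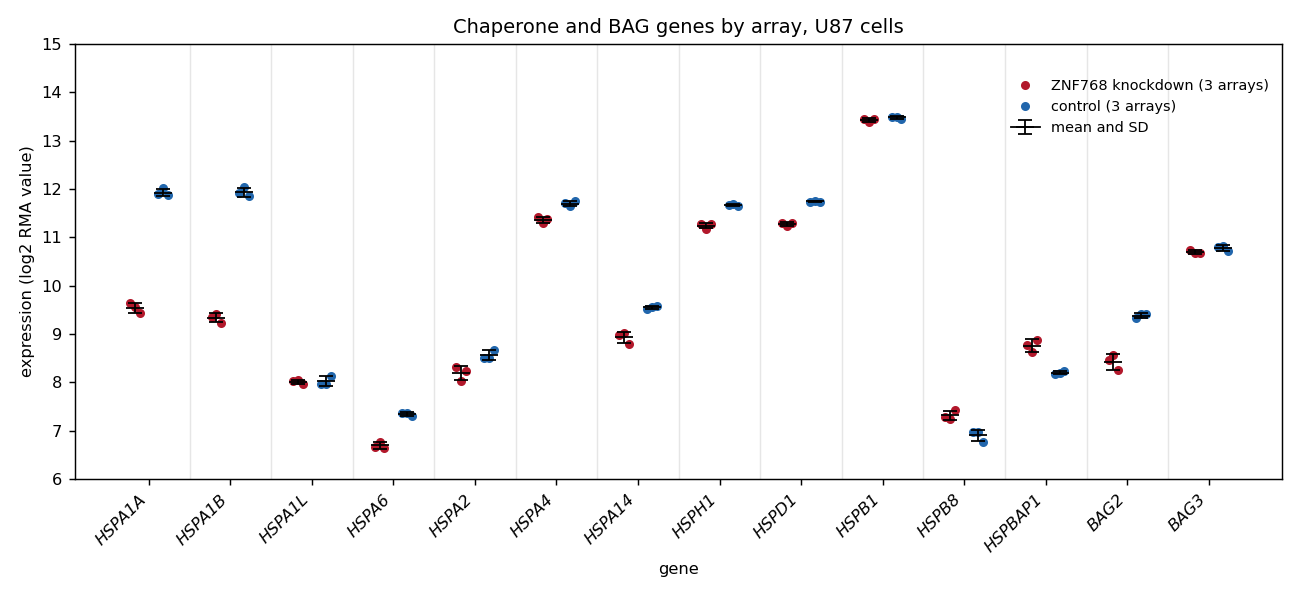
Log2 expression of 14 of the genes on each array, ZNF768 knockdown to the left of control, with mean and SD (bars, n = 3). The groups are apart by more than 2 log2 units in HSPA1A and HSPA1B and overlap in HSPA1L, HSPB1 and BAG3, and heights of different genes cannot be compared because probes differ.

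Of the 5 genes with an HSPB symbol, 2 rose (HSPB8 and HSPBAP1), beside 16.6% of all genes, and 3 did not pass the test. The median of the 5 log2 differences, 0.23, is the value of HSPB2-C11orf52, which like HSPBAP1 encodes no small heat shock protein. The small heat shock genes HSPB1, HSPB3 and HSPB8 had log2 differences of -0.05, 0.14 and 0.41. HSPB1 (HSP27), an abundant holdase that HSF1 also induces, read 13.45, 13.39 and 13.45 in ZNF768 knockdown cells and 13.50, 13.50 and 13.45 in control cells. The groups overlapped and the log2 difference was -0.05, with a 95% interval from -0.18 to 0.08 (adjusted p = 0.569 from limma). Whether signals this bright were saturated could not be examined from the deposited values. HSPB8, which with BAG3 directs misfolded proteins to autophagy, read 7.28, 7.24 and 7.43 in knockdown cells, against 6.97, 6.97 and 6.77 in control cells. It rose to 1.33 times the control level (log2 difference 0.41, standard error 0.0867, adjusted p = 0.0168 from limma), a call that was lost without knockdown replicate 3 (adjusted p = 0.0516, in a range from 0.00462 to 0.0661 over the alternatives). HSPBAP1 read 8.78, 8.63 and 8.88 in knockdown cells, against 8.18, 8.19 and 8.23 in control cells, and rose to 1.48 times the control level (log2 difference 0.56, standard error 0.0779, adjusted p = 0.00313 from limma). HSPB3, a muscle gene, and HSPB2-C11orf52 were dim, at 5.52 and 5.78 in knockdown cells and 5.38 and 5.55 in control cells, and did not pass the test.

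Of the BAG genes, BAG2 fell and the other 4 did not pass the test, so 20% fell beside 16.8% of all genes. BAG2, which restrains the ubiquitin ligase CHIP on HSP70, read 8.47, 8.57 and 8.25 in ZNF768 knockdown cells, against 9.32, 9.41 and 9.41 in control cells. This is 0.518 of the control level (log2 difference -0.95, standard error 0.0925, adjusted p = 0.000765 from limma), and the groups were well apart. BAG3, which couples HSP70 to HSPB8 and is induced by HSF1, read 10.74, 10.67 and 10.67 in knockdown cells and 10.80, 10.83 and 10.71 in control cells, with a 95% interval of the log2 difference from -0.23 to 0.06 (adjusted p = 0.38 from limma). For BAG1, BAG4 and BAG5 the log2 differences were 0.12, 0.00 and -0.04, with intervals that hold 0 and reach no further than -0.24 and 0.36.

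Genes of the heat shock response were read together as a list of 21, of which 10 were measured and 8 belong to the 23. The list was drawn up as genes driven by HSF1 on heat shock, and HSPA1L was put on it although heat does not induce it. Of the 10, 6 fell (HSPA1A, HSPA1B, HSPA6, HSPD1, HSPH1 and CHORDC1) and 4 did not pass the test (HSPA1L, HSPB1, BAG3 and STIP1), so 60% fell beside 16.8% of all genes. The median log2 difference of the list was -0.42. CHORDC1, a co-chaperone of HSP90, read 7.51 in knockdown cells and 7.92 in control cells (log2 difference -0.42, standard error 0.114, adjusted p = 0.0439 from limma). The CHORDC1 call was lost when any sample other than knockdown replicate 1 was left out, and the list then held 5 falls. Within the list, differences ran from -2.60 for HSPA1B to 0.12 for STIP1, which links HSP70 to HSP90. Subtracted within each array in the same way, HSPA1A minus HSPA6, HSPH1, HSPD1 or BAG3 differed between the groups by -1.73, -1.96, -1.92 and -2.30 on the log2 scale, again without a test.

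Matches to the 2-unit motif (GAANNTTC or TTCNNGAA, each its own reverse complement, so both strands are covered) were counted in the 250 bases before the start sites of 35116 RefSeq promoter windows, of which 11.6% held a match. Of the 24 windows of the genes described here 10 held one (41.7%), some genes having several windows. Windows were found for 19 of the 23 genes, the others being HSPA14, HSPA12B, BAG4 and HSPB2-C11orf52. Counted by gene, with any of its windows, a match stood in 5 of 8 genes that fell (HSPA1A, HSPA1B, HSPA6, HSPD1 and BAG2), in 1 of 2 that rose (HSPB8) and in 4 of 9 that did not pass the test (HSPA1L, HSPA4L, HSPB1 and HSPB3). HSPA1A and HSPA1L are counted for the same site. A share by gene was not computed for all promoters, so the 11.6% of windows is not a background for these counts. The 3-unit form (GAANNTTCNNGAA or TTCNNGAANNTTC, which holds overlapping 2-unit matches) was in 0.441% of all windows and in those of HSPA6, where it is the second stretch of capitals printed for that gene, and of HSPD1. HSPH1, HSPA4 and HSPA2 fell and BAG3 did not pass the test, and their windows hold no match. A match is a description of letters and not a bound site.

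**Figure D4:**
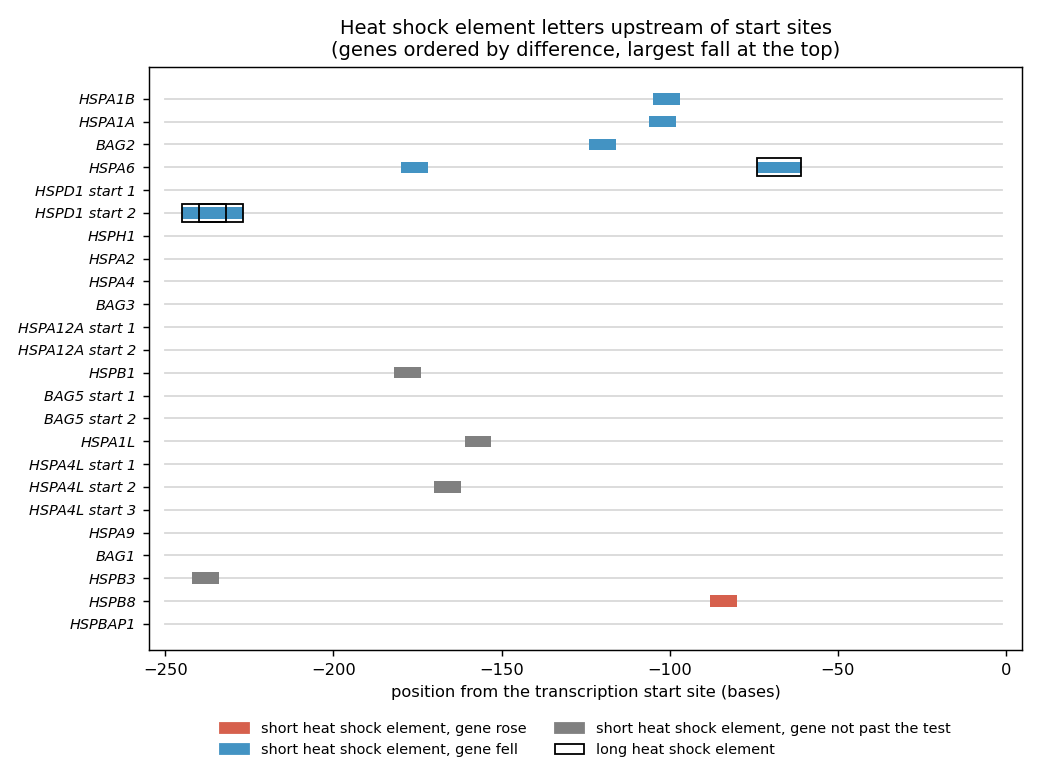
Position of heat shock element letters in the 250 bases before each RefSeq start site of 19 genes, ordered from the most negative difference at the top, where filled boxes are 2-unit matches and outlined boxes 3-unit matches. Genes that fell, rose and did not pass the test all hold boxes, and those of HSPA1A and HSPA1B lie near 100 bases before the start.

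Partners that steer these chaperones moved in both directions. Of a list of 32 co-chaperones and regulators 22 were measured, and of these 6 fell (27.3%), 5 rose (22.7%) and 11 missed the threshold, beside 16.8% and 16.6% of all genes. The median of their log2 differences was 0.06. HSF1 itself, the factor that switches on the inducible genes, read 9.79, 9.82 and 9.78 in ZNF768 knockdown cells, against 9.44, 9.44 and 9.46 in control cells. It rose by 0.35 on the log2 scale (limma adjusted p = 0.00381), in the opposite direction to HSPA1A. HSBP1, which binds HSF1 and restrains it, rose as well, by 0.29, a call close to the threshold (adjusted p = 0.0397 from limma). The most negative differences of the list were those of a pair of HSP90 co-chaperones. PTGES3 (p23), which stabilises closed HSP90, read 10.42, 10.28 and 10.38 in knockdown cells and 11.02, 11.08 and 11.05 in control cells (log2 difference -0.69, standard error 0.0615). CDC37, which brings kinases to HSP90, read 9.96, 9.89 and 9.89 in knockdown cells and 10.49, 10.52 and 10.54 in control cells (log2 difference -0.60, standard error 0.0541). FKBP5, HYOU1 (the HSP110 of the endoplasmic reticulum), CHORDC1 and TRAP1 (the mitochondrial HSP90) completed the falls, from -0.53 to -0.26. PDCL3, a phosducin-like cofactor of the CCT chaperonin, had the largest rise with 0.62, followed by UNC45A, a myosin chaperone, with 0.52, and PFDN4, a prefoldin subunit, rose by 0.26.

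Although subunits named PSM were not analysed here, 14 of a list of 17 genes were measured whose products bind, assemble or regulate the proteasome or, like ADRM1 and SEM1, are counted among the subunits of its regulatory particle. Of these, 4 fell (28.6%), 1 rose (7.14%) and 9 missed the threshold, beside 16.8% and 16.6% of all genes, and the median of their log2 differences was -0.06. UCHL5, a deubiquitinase of the regulatory particle, read 7.65, 7.19 and 7.22 in ZNF768 knockdown cells, against 8.10, 8.15 and 8.21 in control cells (log2 difference -0.80, standard error 0.13, adjusted p = 0.00593 from limma). ADRM1, the ubiquitin receptor that recruits UCHL5, read 11.51, 11.51 and 11.65 in knockdown cells, against 11.16, 11.17 and 11.17 in control cells, and so rose by 0.39 on the log2 scale (limma adjusted p = 0.00553). The receptor and its enzyme thus passed the test in opposite directions. PAAF1, which holds the ATPases of the regulatory particle apart from the core, fell by 0.64, UBQLN4, a shuttle for ubiquitylated proteins, fell by 0.47 and USP14, the other deubiquitinase of the particle, fell by 0.28 on the log2 scale. NFE2L1, the transcription factor that raises proteasome genes when activity is short, had a log2 difference of -0.17 (adjusted p = 0.0835 from limma), and POMP, which assembles the core, one of 0.13 (adjusted p = 0.151 from limma). SEM1 read 6.80 in knockdown cells and 6.77 in control cells on average, with a 95% interval of the log2 difference from -0.13 to 0.19. Of 15 genes of antigen presentation, which proteasome products feed, 6 were measured. TAPBP fell by 0.35 on the log2 scale, IRF1 and TAPBPL rose by 0.42 and 0.24, and ERAP1, ERAP2 and B2M did not pass the test. The TAPBPL call was close to the threshold (adjusted p = 0.0488 from limma).

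**Figure D5:**
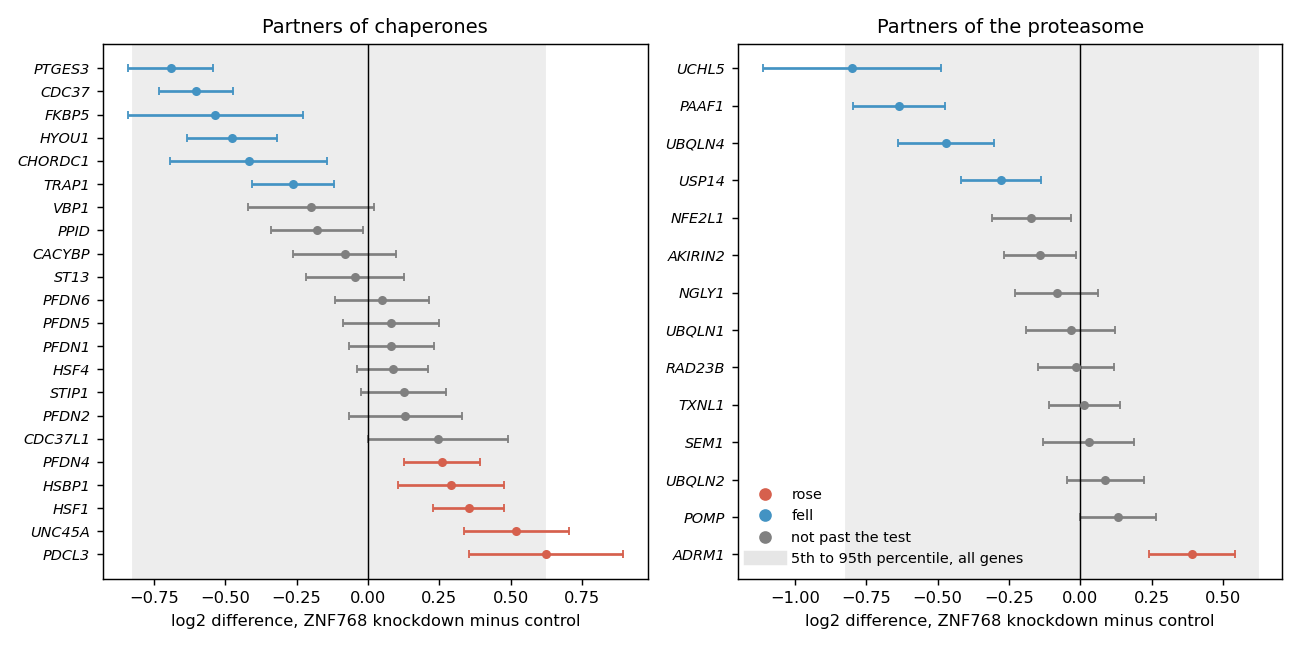
Difference in log2 expression, ZNF768 knockdown minus control, with 95% intervals for the 22 measured partners of chaperones (left) and the 14 measured partners of the proteasome (right). PTGES3 and CDC37 at one end and PDCL3 and UNC45A at the other bound the chaperone partners, and UCHL5 and ADRM1 bound those of the proteasome.

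A further 4 genes of the searched families carry a name in a table of the study that at hand holds its largest rises only, so they could enter only if they were high and are given as values without a test. DNAJC27 read 9.04, 8.77 and 8.97 in ZNF768 knockdown cells and 8.11, 8.05 and 8.19 in control cells. DNAJC28 read 8.24, 8.10 and 8.12 in knockdown cells and 7.25, 7.55 and 7.54 in control cells, and DNAJC14 averaged 8.70 in knockdown cells and 8.07 in control cells. CCT6B, a testis form of a chaperonin subunit, read 6.701, 6.404 and 6.973 in knockdown cells and 6.13, 5.68 and 6.08 in control cells. In each of the 4 the groups did not overlap, as the way they were found makes likely. Nothing about other DNAJ or CCT genes follows from them.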

How the data were processed

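The authors hybridized RNA of 6 samples to Affymetrix Human Gene 2.0 ST arrays and deposited 1 log2 value per probeset and array, made with the oligo package by Robust Multichip Average (RMA), that is background correction, quantile normalization and summary over probes. Versions, filters, scan dates and slide positions are not given in the sources used here. RMA makes every difference relative to the other genes of an array, and the number of arrays limits the precision.

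Of 53617 probesets, 16098 have 1 symbol in the platform's table, updated through Entrez identifiers. The brightest probeset stood for a gene. A linear model without covariates (limma 3.58.1, lmFit and eBayes, under R 4.3.3) compared the groups two-sided. P-values were adjusted for all probesets by Benjamini-Hochberg, and calls needed an adjusted p under 0.05. Intervals are 95% and moderated. The procedure was tested on simulated data. The study states independent biological replicates for these arrays. Genes were named by a rule (targeted gene, the 12 largest rises and falls past the test without overlap, extremes per class, and preset genes), and the remaining members were named to account for all. Members, lists and rules were chosen with earlier results of these data known, so they are not independent evidence. Alternatives were cyclic loess, housekeeping centring, no dim probesets, named probesets only, the mean of a gene's probesets, trend and robust eBayes, array weights, a replicate block, each sample left out, a threshold of 0.01 and a ratio of unlogged means. Promoter windows are from RefSeq (GRCh38.p14).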

Additional observations from a re-analysis of the deposited data

How the results depend on the processing

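HSPA1A, HSPA1B, HSPA6, HSPA14, HSPH1, HSPA4, HSPD1, BAG2, HSPBAP1 and ZNF768 kept their direction and call in all settings run. HSPA2 and HSPB8 lost theirs with the replicate block, at 0.01 and, for HSPA2, with housekeeping centring. The count of members that rose, 2 in the main comparison (as for HSP symbols), was 1 with the replicate block, 1 at a threshold of 0.01, 1 to 2 with a sample left out (1 without knockdown replicate 3), and, in a choice made after seeing the data, 1 without HSPBAP1 and HSPB2-C11orf52. The count that fell was 9 in the main comparison, 8 with HSPA1A and HSPA1B counted as 1 gene (also chosen after seeing the data), and 8 to 9 with a sample left out. Of the chaperone partners 11 changed in the main comparison, 6 with the replicate block, 6 at 0.01, and 7 to 9 with a sample left out (7 without control replicate 1, 2 or 3). Of the proteasome partners 5 changed, and 8 with trend and robust eBayes. Of the heat shock list 6 changed, and 5 with housekeeping centring, the replicate block, a threshold of 0.01 or any sample but knockdown replicate 1 left out. The gene lost was CHORDC1. Of the antigen presentation genes 3 changed, and 2 with cyclic loess, the replicate block, a threshold of 0.01 or any sample left out. They were 4 without dim probesets, with named probesets only or with the mean of a gene's probesets. Differences that changed sign were all near 0 and not past the test: BAG4 had a log2 difference of 0.0365 with housekeeping centring and -0.0289 to 0.0161 with a sample left out, HSPA1L had 0.0269 with housekeeping centring, 3.06e-05 with array weights and -0.0414 to 0.045 with a sample left out, and BAG5 had -0.103 to 0.0146 with a sample left out. At 0.01, 1506 genes rose and 1796 fell, against 2466 and 2501 at 0.05. The cause of these shifts was not tested. Same-numbered arrays did not deviate together (r = -0.068, -0.0212 and 0.0218). With 3 arrays per group this cannot exclude that the numbers pair the samples. The study states that treatment groups of a cell culture experiment were set up from the same plate, and the labels name no pairs. The block left 1 rise and 8 falls. Counts for PSM, CCT and DNAJ genes could not be given. The deposited values give no background level, so how far dim probesets such as that of HSPA6 lie above it is unknown.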
